A study of Mus musculus with 16 samples.

Results

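The genes described here are 10 members of the glucose-responsive and lipogenic programme of pancreatic islets, out of 17864 genes listed in the deposited expression tables. They are Txnip, Arrdc4, Mlxipl, Pklr, Rgs16, Klf10, Fasn, Acly, Acaca and Gpd1, and all 10 were found by symbol in both tables, over all 16 libraries. The members were chosen by name with their values in both comparisons already known, so those values are given as a description, and the p-values printed for them support nothing.

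Islet RNA was sequenced in 4 groups of 4 mouse libraries. Flox mice were homozygous for a B7-H4 (Vtcn1) allele flanked by loxP sites, without Cre, and B7-H4 cKO mice (cKO) carried the same alleles with Rip-Cre, a Cre recombinase under the rat insulin II promoter. Both were on normal chow, their age at RNA collection is not given in the sources used here, and a Cre-only group was not part of the RNA comparison, so the presence of Cre and the loss of B7-H4 cannot be told apart. The OE and Ctrl mice were fed a high-fat diet (HFD) for 8 weeks, then received AAV2/8 carrying B7-H4 and ZSGreen under the Ins2 promoter (OE) or a control virus (Ctrl) through the pancreatic duct, and their islets were taken 5 weeks later. The sources name these HFD-fed animals both as wild-type and as Flox mice, and do not say whether islets of several mice were pooled. Libraries are named by group with the number that the tables carry. Values are FPKM, fragment counts scaled to library size and to gene length, so levels of different genes can be set side by side.

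Glucose entering a β cell is phosphorylated, and its metabolites activate the transcription factors ChREBP, encoded by Mlxipl, and its relative MondoA, which bind DNA together with their partner Mlx. Textbook targets include Txnip, an inhibitor of thioredoxin that restrains glucose uptake, its relative Arrdc4, the glycolytic enzyme gene Pklr, and the enzymes that turn citrate into fatty acids. In β cells Txnip is among the best-known glucose-induced genes, and Rgs16 and Klf10 also respond to glucose there.

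The element that these factors are known to read is a pair of E-box-like sites separated by 5 bases, and the promoters of the members were searched for it. The mouse RefSeq promoter windows (GRCm38.p6, the assembly that the labels call mm10) held 8 of the 10 members, and the 250 bases before the start were searched on both strands. The 3 windows below are examples of those that carry such an element or a full E-box. A window of Mlxipl with a full E-box is described below but not printed. The element or E-box is in capitals together with CCAAT boxes, and each window is printed 5′ to 3′ on the strand of its gene. The printed windows lie at chr3:96557707-96557956 (Txnip, plus strand), chr7:68749239-68749488 (Arrdc4, minus strand) and chr3:89136373-89136622 (Pklr, plus strand, the downstream one of its 2 starts).
Txnip: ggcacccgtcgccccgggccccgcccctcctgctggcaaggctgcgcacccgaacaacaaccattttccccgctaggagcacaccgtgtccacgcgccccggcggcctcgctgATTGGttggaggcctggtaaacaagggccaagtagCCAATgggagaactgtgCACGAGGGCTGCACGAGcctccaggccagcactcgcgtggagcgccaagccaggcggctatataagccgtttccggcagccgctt
Arrdc4: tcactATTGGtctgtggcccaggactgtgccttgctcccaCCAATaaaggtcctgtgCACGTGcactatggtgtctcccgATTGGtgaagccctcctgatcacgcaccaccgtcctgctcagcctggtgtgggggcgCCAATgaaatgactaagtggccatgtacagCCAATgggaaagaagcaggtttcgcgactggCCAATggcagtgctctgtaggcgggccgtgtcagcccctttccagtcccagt
Pklr: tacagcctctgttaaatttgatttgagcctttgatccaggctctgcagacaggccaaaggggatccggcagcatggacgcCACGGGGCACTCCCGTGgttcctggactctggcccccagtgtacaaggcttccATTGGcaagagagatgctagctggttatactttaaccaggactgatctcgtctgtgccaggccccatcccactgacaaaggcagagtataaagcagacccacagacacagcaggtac
Txnip held the E-box-like site CACGAG in tandem, as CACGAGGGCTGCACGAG, from 85 to 69 bases before its start, and it was the 1 window of 32851 (0.00304%) to match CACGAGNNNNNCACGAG, a pattern spelled out after this promoter was read. Pklr held a match to the consensus carbohydrate response element, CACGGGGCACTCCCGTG, from 170 to 154 bases before the start, which 0.0974% of all windows hold. The full E-box CACGTG, found in 6.02% of windows, stood 193 bases before the start of Arrdc4 and 98 before that of Mlxipl (window chr5:135089640-135089889). CCAAT boxes (CCAAT on either strand, 33.8% of windows) occurred 6 times before Arrdc4 and 2 times before Txnip, and they were also present before Mlxipl, Pklr, Rgs16 and Fasn. No E-box or carbohydrate response element was found in these windows for Rgs16, Fasn, Acly or Acaca. The Acaca window (chr11:84195188-84195437, plus strand) lies inside the gene, which spans 84129672 to 84401651. The bases before the first base of Acaca were therefore not searched. A match is a description of letters, and binding was not measured.

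Some libraries stood apart, and the results below are given with and without them. Reads per library are unknown; the spacing of the lowest values gave relative depths from 0.84 to 1.08 of the median of their table. The 22 acinar markers, digestive enzymes of exocrine cells that cling to isolated islets, summed to 7.70% to 36.8% of all FPKM in Flox libraries, 37.6% to 47.6% in cKO, 2.25% to 77.9% in Ctrl and 11.5% to 15.0% in OE. Ctrl2 (59.6%) and Ctrl3 (77.9%) had the highest acinar shares of the 16 libraries, while the 10 β-cell markers, all of them detected in every library, summed to 19.1% and 4.38% of FPKM there. Flox17 also carried the intestinal genes Clca1 (8.09 FPKM) and Mptx1 (15.9 FPKM), which were at 0 in the other 3 Flox and the 4 cKO libraries. Markers of adipocytes, which also express lipogenic enzymes, summed to 0.161 to 15.99 FPKM in Flox, with the highest sum in Flox20, where all 9 were above 0, and to 0.0195 to 0.185 FPKM in cKO, where Adipoq and Plin1 were at 0 in all 4 libraries. The 7 of these markers in the HFD table summed to 0.0436 to 1.58 FPKM in Ctrl and 0.523 to 1.26 FPKM in OE. Vtcn1 was at 40.0 to 128 FPKM in OE libraries and 0.0636 to 0.371 in Ctrl, and it was too low to check the deletion, with 0.0188 to 0.216 in Flox and 0.0202 to 0.125 in cKO.

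Txnip was the most abundant of the 10 genes in every library. In Flox16, Flox17, Flox20 and Flox21 it was at 359, 935, 581 and 548 FPKM, and in cKO8, cKO9, cKO12 and cKO38 at 494, 782, 858 and 585 FPKM. In Ctrl1, Ctrl2, Ctrl3 and Ctrl5 it was at 818, 291, 240 and 741 FPKM, and in OE1 to OE4 at 865, 1108, 1031 and 1017 FPKM. The chow groups overlapped over most of their range, whereas every OE library was above every Ctrl library, by a narrow margin over Ctrl1.

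Arrdc4, an α-arrestin relative of Txnip with a similar role in glucose uptake, was expressed at a far lower level. Its values were 4.29, 8.27, 3.60 and 4.12 FPKM in the Flox libraries and 5.97, 10.3, 9.83 and 7.14 FPKM in the cKO libraries, in the order above. Apart from Flox17, all Flox libraries were below all cKO libraries. In the HFD groups Arrdc4 was at 10.3, 2.499, 1.24 and 7.90 FPKM in Ctrl and 8.27, 12.8, 11.9 and 13.6 FPKM in OE, where Ctrl1 was above OE1.

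Klf10, a zinc-finger repressor of the Krüppel-like family, was at 2.89, 13.3, 5.14 and 5.05 FPKM in Flox and at 7.41, 15.4, 17.7 and 11.2 FPKM in cKO. Flox17 was again the exception, being higher than 2 of the 4 cKO libraries, while the other 3 Flox libraries were below all of them. Its Ctrl values were 20.1, 2.53, 1.92 and 14.8 FPKM and its OE values 21.5, 37.4, 32.6 and 33.1 FPKM. The HFD groups did not overlap, and the gap between Ctrl1 and OE1 was small.

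Rgs16, which shortens signals of G protein-coupled receptors, was the most variable member in Flox, at 5.74, 35.4, 14.5 and 8.99 FPKM, against 12.7, 16.4, 17.0 and 12.6 FPKM in cKO. Flox17 held the highest chow value and the other 3 Flox libraries lay around or below the cKO range. In Ctrl it was at 32.7, 4.42, 1.29 and 27.9 FPKM, a 25.3-fold span, and in OE at 35.9, 58.7, 48.3 and 43.3 FPKM, a 1.63-fold span. The HFD groups did not overlap for this gene.

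Mlxipl itself, the gene for ChREBP, differed in pattern from these 4 genes. It was at 31.3, 64.0, 112 and 106 FPKM in Flox and 55.3, 28.7, 41.3 and 27.1 FPKM in cKO, so that Flox20 and Flox21 were above every cKO library and Flox16 was among the lowest. In Ctrl it was at 233, 99.3, 19.9 and 139.5 FPKM, and in OE at 143, 157, 169 and 193 FPKM. The highest value of all 16 libraries was therefore that of a Ctrl library. Pklr, which encodes the liver and red-cell form of pyruvate kinase, was low throughout, at 2.36 to 5.77 FPKM in Flox, 2.76 to 5.60 in cKO, 1.42 to 6.88 in Ctrl and 6.81 to 8.44 in OE. Its 2 starts were not counted apart.

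**Figure D1:**
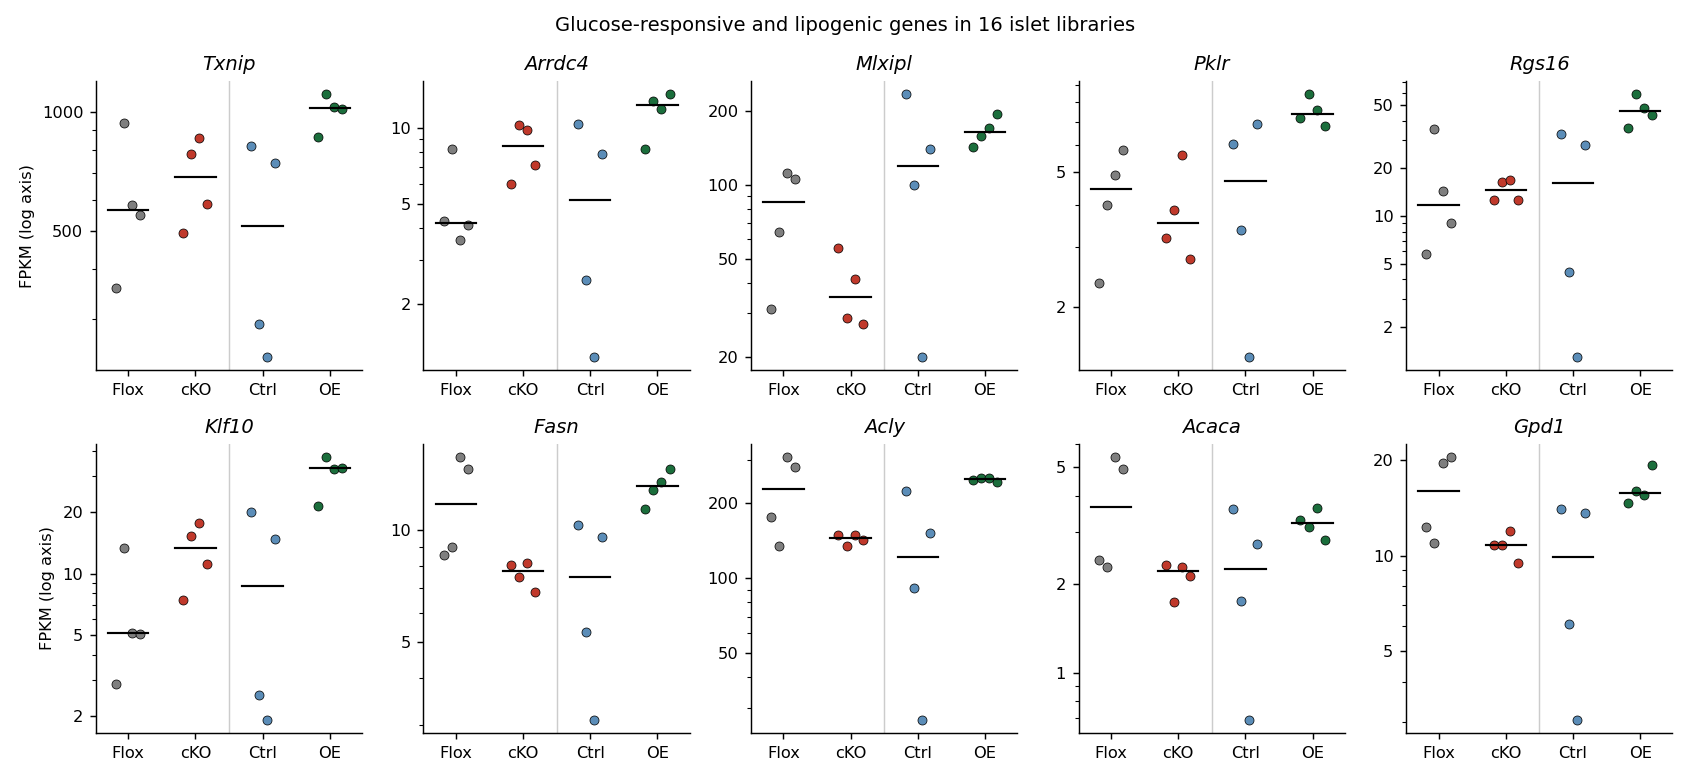
FPKM (log axis) of the 10 genes in each of the 16 libraries, 1 panel per gene; points are libraries in the order of their numbers, horizontal lines are group medians, and the grey line parts the chow table from the HFD table. Txnip, Rgs16, Klf10, Fasn, Acly and Gpd1 were higher in all 4 OE than in all 4 Ctrl libraries, and 2 Ctrl libraries lie far below the other 2 for most genes.

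The lipogenic enzymes varied together. Acly, the enzyme that splits citrate to supply acetyl-CoA, was at 177, 135, 308 and 279.8 FPKM in Flox and at 149, 134, 149.9 and 142 FPKM in cKO. Fasn, the fatty acid synthase, was at 8.56, 8.99, 15.7 and 14.5 FPKM in Flox and at 8.03, 7.46, 8.17 and 6.82 FPKM in cKO. Flox20 and Flox21 were high for both enzymes, while Flox16 and Flox17 lay close to the cKO libraries, just above all of them for Fasn. Acaca, acetyl-CoA carboxylase, was at 2.42, 2.29, 5.42 and 4.93 FPKM in Flox and at 2.33, 1.74, 2.29 and 2.13 FPKM in cKO. Gpd1, which makes glycerol-3-phosphate from a glycolytic intermediate, was at 12.3, 10.99, 19.6 and 20.5 FPKM in Flox and at 10.8, 10.8, 11.9 and 9.45 FPKM in cKO. The same split of the Flox group into a high and a low pair appeared in all 4 enzyme genes. The same pairs differed in acinar share, 28.7% and 36.8% in Flox16 and Flox17 against 11.1% and 7.70% in Flox20 and Flox21. The β-cell markers summed to 36.6% and 35.4% of FPKM in Flox16 and Flox17, and to 51.9% and 54.7% in Flox20 and Flox21. The part of cell composition in this split was not tested.

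In the HFD groups Acly was at 224, 90.9, 26.9 and 151 FPKM in Ctrl and at 248, 252, 252 and 244 FPKM in OE. Fasn was at 10.3, 5.34, 3.10 and 9.59 FPKM in Ctrl and at 11.4, 12.8, 13.5 and 14.5 FPKM in OE. For both enzymes the OE libraries were above all Ctrl libraries, and for Acly the OE libraries spanned only 1.03-fold against 8.33-fold in Ctrl. Gpd1 was at 14.1, 6.08, 3.04 and 13.7 FPKM in Ctrl and at 14.6, 15.9, 15.5 and 19.3 FPKM in OE, again without overlap. Acaca overlapped, with 3.59, 1.75, 0.691 and 2.74 FPKM in Ctrl and 3.32, 3.14, 3.64 and 2.83 FPKM in OE.

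The question of what islets without B7-H4 in β cells express was addressed by cKO against Flox on chow, in limma over the 11804 genes whose mean reached 0.5 FPKM, all 10 members included. Klf10 had the largest positive log2 fold change of the members, 1.05 ± 0.46 (SE, n = 4 per group, limma adjusted p = 0.127). Arrdc4 followed at 0.70 ± 0.24 (limma adjusted p = 0.0529), and Txnip (0.21 ± 0.32) and Rgs16 (0.17 ± 0.53) had standard errors larger than their values. The negative side was led by Mlxipl at -0.93 ± 0.46 (limma adjusted p = 0.167), followed by Acaca (-0.62 ± 0.24), Fasn (-0.57 ± 0.20), Acly (-0.57 ± 0.23) and Gpd1 (-0.50 ± 0.20), whose adjusted p lay between 0.0583 and 0.092, and Pklr was at -0.11 ± 0.24. These are averages over whole islets, in which fewer cells of a type and less RNA per cell cannot be told apart.

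No member was called at an adjusted p under 0.05 with an absolute log2 fold change over 1, against 0.339% of all genes called higher and 0.974% called lower. Without the fold minimum 0 members were called as well, against 1.02% of genes higher and 12.8% lower. At p under 0.05 before adjustment, 1 member was higher (Arrdc4) and 4 lower (Fasn, Acly, Acaca and Gpd1), where 3.12% of all genes were higher and 38.3% lower. Groups that did not overlap were found for 1 member, Fasn, which was lower in all 4 cKO libraries, against 15.4% of genes lower and 1.32% higher. The share of members that were lower was thus close to that of all genes by each of these counts, and nothing is read from it.

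Most genes had lower FPKM in cKO, with a median log2 fold change of -0.34 and 86.9% of genes below 0, and all 22 acinar markers had positive values (median 1.41), 0 of them past an adjusted p of 0.05. The members' median was -0.30. Relative to the median of all genes, Klf10 was 1.39 higher, Arrdc4 1.04, Txnip 0.56 and Rgs16 0.51 on the log2 scale, whereas Fasn, Acly, Acaca and Gpd1 lay 0.15 to 0.28 below it, and Mlxipl 0.59 below. Klf10 ranked above 98.7% of all genes tested and Arrdc4 above 97.6%, and Mlxipl above 2.38% only. These ranks describe members chosen with their values known, and nothing is read from them. With median-of-ratios scaling, which moved the median of all genes to -0.00086, Pklr turned to 0.23 and the other members kept their signs, the lipogenic enzymes at -0.12 to -0.29. The part of the acinar share in these differences was not tested beyond the alternatives given here.

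The division of the Flox group mattered for each of these values. Leaving out Flox17, the library with intestinal genes, gave 1.43 for Klf10 (limma adjusted p = 0.00563) and 0.94 for Arrdc4 (adjusted p = 0.00352), while Fasn, Acly, Acaca and Gpd1 were at -0.65 to -0.80 with adjusted p between 0.00592 and 0.0158. Leaving out Flox16 gave -1.31 for Mlxipl (limma adjusted p = 0.00209), and Txnip moved to -0.0097 and Rgs16 to -0.20. In the 3 libraries per group shown in the study's heatmaps, which leave out Flox17 and cKO8, Klf10 was at 1.67 and Arrdc4 at 1.08 (limma adjusted p = 0.00284 and 0.00286), and Txnip at 0.59 (adjusted p = 0.0445). In the heatmap libraries 153 of all genes tested were called higher and 546 lower, against 40 and 115 in the main fit. The counts of all genes without Flox16 or without Flox17 are not reported here. Flox17 also had the highest acinar share of the Flox group (36.8%). Nothing is therefore read from the adjusted p of members in these settings. With the acinar share as a covariate, Klf10 was at 0.32 and the other 9 members changed sign. The limma adjusted p was 0.644 or more for every member. The acinar share was 7.70% to 36.8% in Flox and 37.6% to 47.6% in cKO, without overlap. This fit therefore cannot tell the acinar share and the group apart, and nothing is read from its signs.

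Raised B7-H4 in β cells was addressed by OE against Ctrl under HFD, over 12132 genes, which again included all 10 members. All 10 members had positive log2 fold changes, led by Rgs16 at 2.28 ± 0.73 (SE, n = 4 per group) and Klf10 at 2.16 ± 0.60. Acly (1.38 ± 0.52), Arrdc4 (1.36 ± 0.54), Txnip (1.14 ± 0.46), Gpd1 (1.01 ± 0.50) and Fasn (0.96 ± 0.46) followed, and Pklr (0.88 ± 0.47), Mlxipl (0.87 ± 0.57) and Acaca (0.61 ± 0.43) were smallest. The limma adjusted p was 0.591 for each of the 10. Rgs16 and Klf10 had larger positive fold changes than 99.97% and 99.96% of all genes tested. Since the members were chosen with these values known, nothing is read from those ranks.

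In this comparison 0 members were called, against 0.033% of genes higher and 0% lower, and the same counts held without the fold minimum (0.033% higher and 0% lower). At a limma p under 0.05 before adjustment, 5 members were higher (Txnip, Arrdc4, Rgs16, Klf10 and Acly), where 5.58% of all genes were higher and 0.833% lower. In 6 members (Txnip, Rgs16, Klf10, Fasn, Acly and Gpd1) all OE libraries were above all Ctrl libraries, where 5.61% of all genes were higher and 0.964% lower without overlap. The members had been chosen with this contrast in view, so nothing is read from these shares. The median over all genes was 0.44, with 84.2% of genes above 0, and the members' median was 1.07.

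The size of these differences rested on Ctrl2 and Ctrl3. With both left out, a choice made after seeing the data that leaves 2 Ctrl libraries, Klf10 was at 0.81 ± 0.22 (limma adjusted p = 0.0367) and Rgs16 at 0.59 ± 0.18 (adjusted p = 0.052). Txnip was then at 0.36, Acly at 0.43, Fasn at 0.37, Arrdc4 at 0.32 and Acaca at 0.03, Mlxipl turned to -0.13, and the median of all genes was -0.21. With the acinar share as a covariate, Klf10 (1.21, limma adjusted p = 0.0261) and Rgs16 (1.04, adjusted p = 0.0305) were called, and Txnip was at 0.59 (adjusted p = 0.0532). In that fit 50 of all genes tested were called higher and 209 lower, against 4 and 0 in the main fit. Without Ctrl2 and Ctrl3 these counts were 81 and 568. Nothing is therefore read from the calls of members. Ctrl2 and Ctrl3 had the highest acinar shares (59.6% and 77.9%), so these 2 settings are not independent of each other. Klf10 and Rgs16 kept the largest positive values of the 10 in each of these settings.

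**Figure D2:**
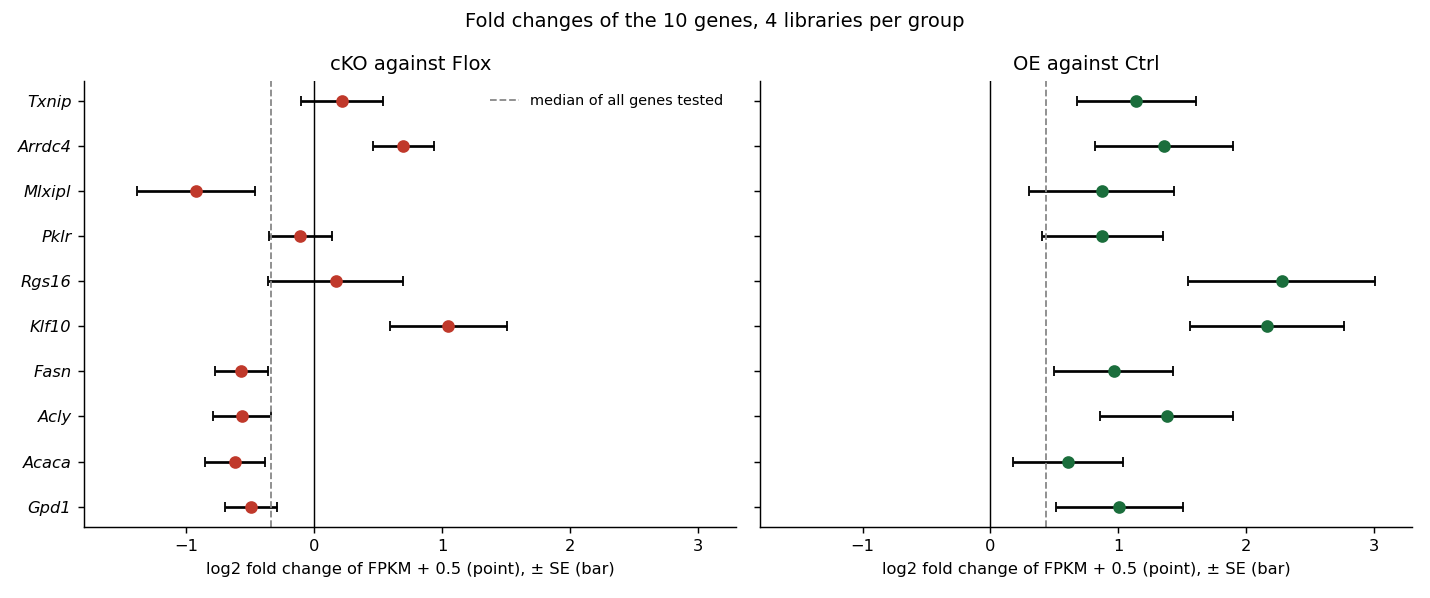
Log2 fold change on the scale of FPKM + 0.5 (points) with its standard error (bars) for the 10 genes, in cKO against Flox (left) and OE against Ctrl (right), 4 libraries per group; the dashed line is the median of all genes tested. In cKO the values run from -0.93 (Mlxipl) to 1.05 (Klf10), and in OE from 0.61 (Acaca) to 2.28 (Rgs16).

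Expressing each gene per 1000000 FPKM of its library outside the 22 acinar markers changed the genes by different amounts. Txnip was then at 1247, 877, 1256 and 1092 in Ctrl and at 1366, 1726, 1664 and 1563 in OE, so that Ctrl3, the lowest library in FPKM, was the highest of its group. Klf10 was still low in Ctrl2 (7.64) and Ctrl3 (10.04) beside Ctrl1 (30.6) and Ctrl5 (21.8), and at 34.0, 58.2, 52.7 and 50.9 in OE. Rgs16 was at 13.3 in Ctrl2 and 6.76 in Ctrl3 on this scale, against 49.9 and 41.1 in Ctrl1 and Ctrl5 and 56.7 to 91.4 in OE. Fasn was nearly even in Ctrl, from 14.1 to 16.2, and from 17.96 to 22.4 in OE. With this scaling the log2 fold changes in OE were 1.73 for Rgs16, 1.60 for Klf10, 0.82 for Arrdc4, 0.75 for Acly, 0.51 for Txnip and 0.13 to 0.42 for the other 5, with limma adjusted p from 0.112 to 0.694.

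On the same scale the Flox and cKO groups were at 5.74 to 27.0 and 16.1 to 42.7 for Klf10, and at 5.87 to 16.8 and 12.9 to 25.6 for Arrdc4. Txnip was at 712, 1898, 948 and 866 in Flox and at 1073, 1948, 2068 and 1447 in cKO, so that Flox17 alone reached the upper cKO values. Acly was at 352, 274, 503 and 442 in Flox and at 323 to 361 in cKO, and Fasn at 17.0 to 25.6 and 16.9 to 19.7. The enzyme values of the chow groups overlapped on this scale, Fasn included.

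**Figure D3:**
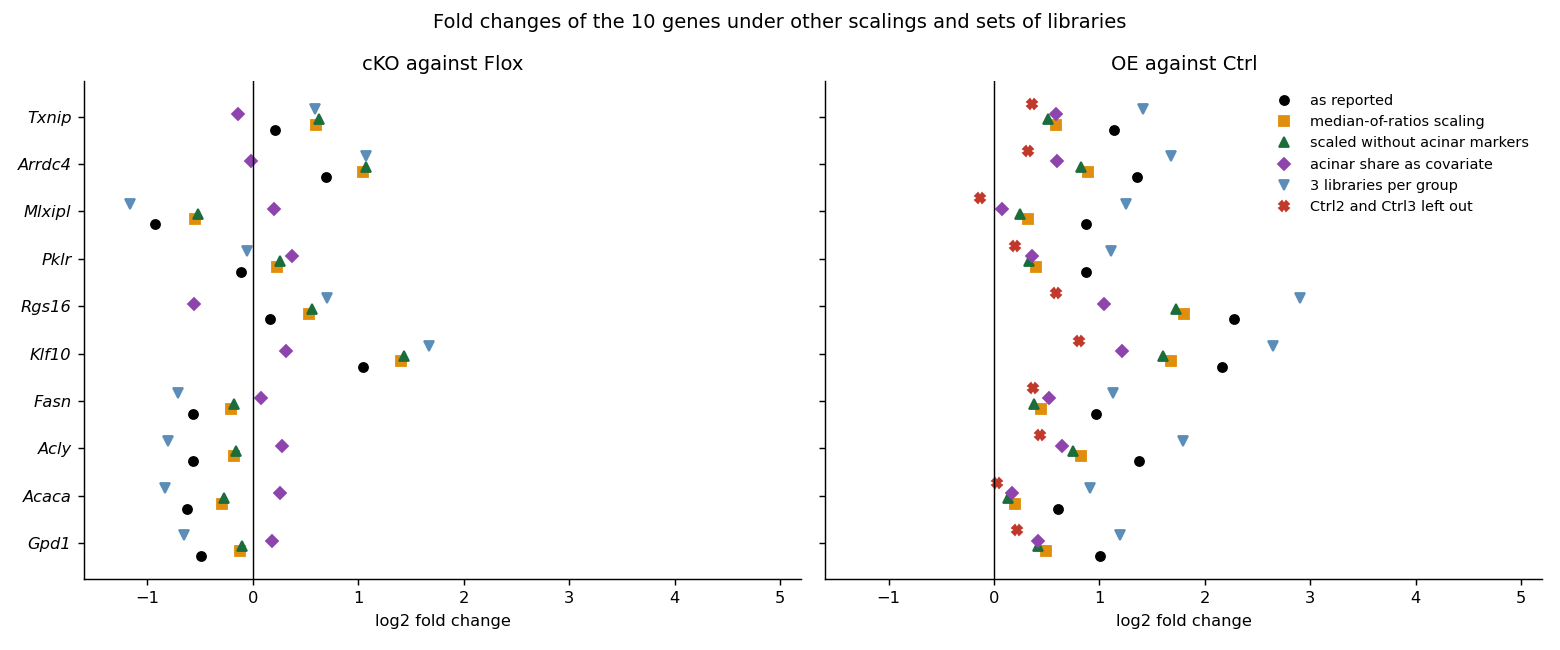
Log2 fold change (horizontal axis) of the 10 genes in cKO against Flox (left) and OE against Ctrl (right) as reported (circles) and under 4 other settings, and on the right also with Ctrl2 and Ctrl3 left out. Klf10 was positive in every setting drawn, from 0.32 to 1.67 in cKO and from 0.81 to 2.65 in OE, whereas the lipogenic enzymes crossed 0 in cKO with the acinar share as a covariate.

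A ratio of 2 genes within a library does not depend on scaling. Klf10 over Fasn was 0.328 to 1.48 in Flox (median 0.343) and 0.922 to 2.17 in cKO (median 1.85), with only Flox17 reaching the cKO range. In Ctrl the ratio was 0.474 to 1.95 and in OE 1.89 to 2.92, where Ctrl1 overlapped with OE1. Txnip over Mlxipl was 5.19 to 14.6 in Flox and 8.94 to 27.2 in cKO, and 2.93 to 12.05 in Ctrl and 5.26 to 7.04 in OE. Among the lipogenic enzymes, Gpd1 over Fasn was 1.22 to 1.44 in Flox, 1.34 to 1.46 in cKO, 0.982 to 1.42 in Ctrl and 1.15 to 1.33 in OE. Acly over Fasn was 15.004 to 20.7 in Flox and 18.02 to 20.8 in cKO, but it spread from 8.67 to 21.8 in Ctrl, against 16.8 to 21.8 in OE.

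Across the 8 chow libraries the members fell into 2 sets, which were drawn up after the values were seen. Txnip, Arrdc4, Rgs16 and Klf10 varied together, with Pearson's r of log2 values from 0.61 to 0.93 over their 6 pairs. Fasn, Acly, Acaca and Gpd1 did so as well, at 0.95 to 0.98. All 16 pairs between the sets had a negative r, from -0.85 to -0.13. Mlxipl went with the enzymes (r from 0.78 to 0.91) and not with Txnip (r = 0.03). The libraries share their groups and the acinar share, and these correlations are descriptions over 8 points.

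The separation of the sets was kept with Flox17 left out (7 libraries, r between sets from -0.83 to -0.11) and on the scale without acinar markers (-0.75 to -0.20). On that scale r in the chow libraries was 0.73 to 0.97 within the Txnip set, 0.82 to 0.91 among the enzymes and 0.47 to 0.80 between Mlxipl and the enzymes. In the 8 HFD libraries the separation was absent, since every pair between the sets had an r from 0.89 to 0.99. Those values rested in part on Ctrl2 and Ctrl3, which were low in nearly all members. Without them, over 6 libraries, r was 0.811 to 0.995 within the Txnip set, 0.11 to 0.92 between the sets and -0.29 to 0.89 among the enzymes. Over all 8 HFD libraries Mlxipl had an r of 0.90 to 0.96 with the enzymes and 0.81 to 0.90 with the Txnip set. Without Ctrl2 and Ctrl3 its r was 0.16 to 0.40 with the enzymes and 0.02 to 0.49 with the Txnip set. On the scale without acinar markers r in the HFD libraries was 0.69 to 0.97 within the Txnip set and 0.14 to 0.94 between the sets. Pairs within the Txnip set therefore had an r of at least 0.61 in both tables and in each of these settings.

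**Figure D4:**
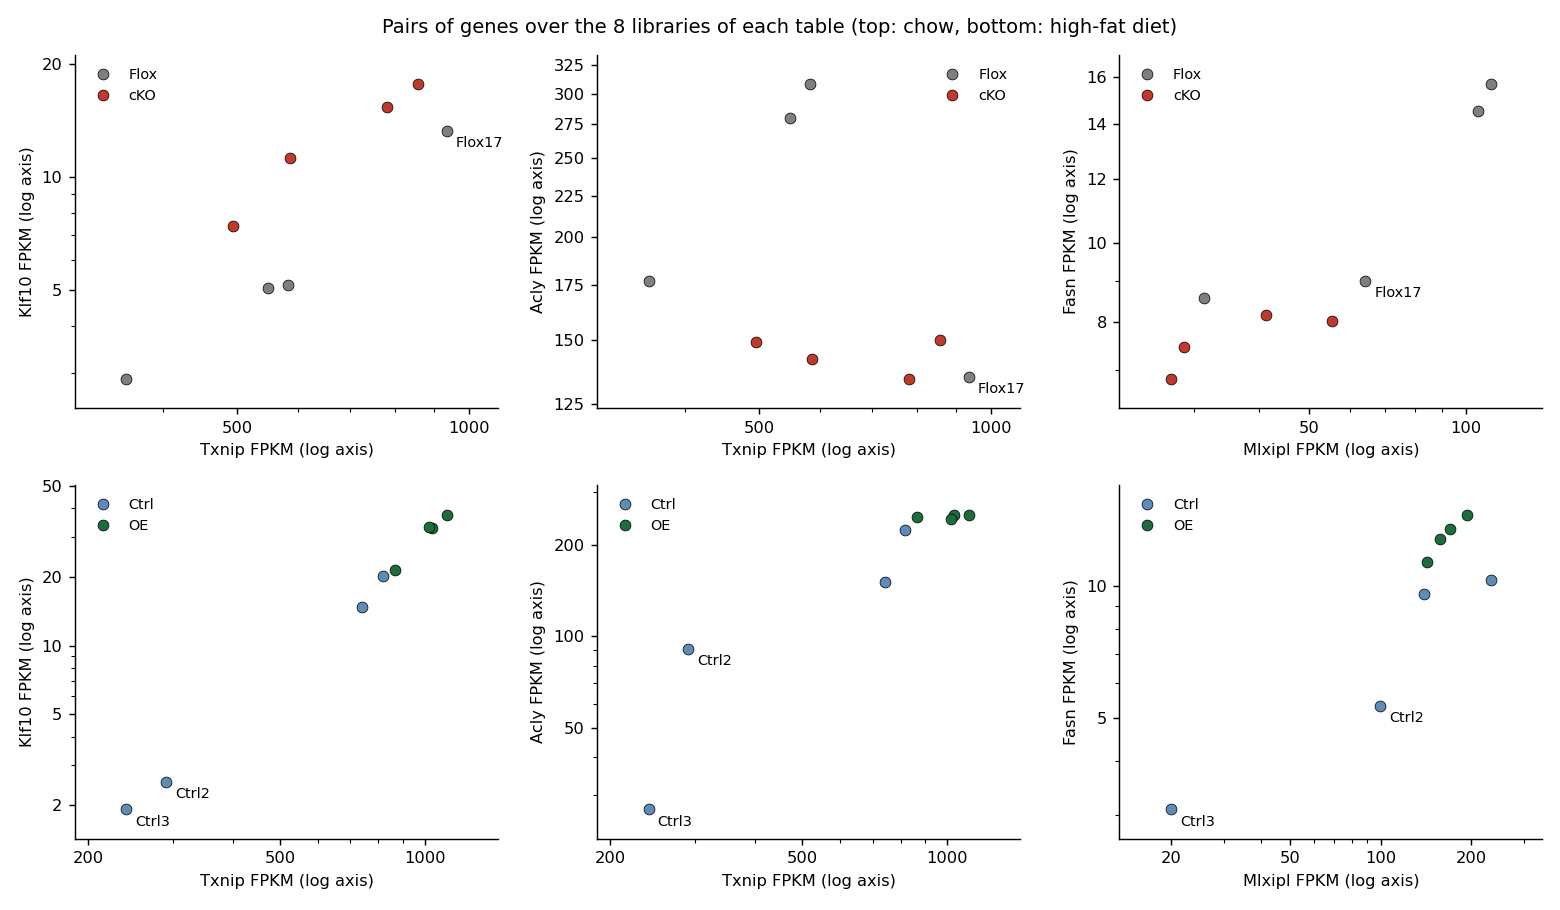
FPKM (log axes) of Klf10 against Txnip, Acly against Txnip and Fasn against Mlxipl in the chow (top) and HFD libraries (bottom); points are libraries, and Flox17, Ctrl2 and Ctrl3 are named. Klf10 rises with Txnip in both tables (r = 0.887 and 0.998), while Acly falls slightly with Txnip in the chow libraries (r = -0.37) and rises with it in the HFD libraries (r = 0.93).

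Among the 11552 other genes tested in both tables, those closest to Txnip by the mean of its r in the 2 tables were Rgs16 (0.94) and Klf10 (0.94), ahead of Scarf2 (0.92), Inka1 (0.90) and Rsph4a (0.89). Arrdc4 stood at rank 9 and Pklr at rank 43. On the scale without acinar markers Klf10 ranked first, Arrdc4 at 4 and Rgs16 at 6. For Mlxipl the closest genes were Rasgrf1, Hdac6, Ptpru, Gm572 and Phyhip (0.98 to 0.99), and its nearest members were Acaca at rank 810 and Fasn at rank 1147. No member was thus among the genes most like Mlxipl.

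The other genes of the pathway were taken from lists written from general knowledge, with the members left out. In cKO against Flox, 12.8% of all genes tested were lower and 1.02% higher at a limma adjusted p under 0.05. The counts in these small lists stand beside those shares, and nothing is read from them. Of 11 genes of the Mlx and Max network tested in cKO against Flox, 0 were higher and 1 lower at a limma adjusted p under 0.05, namely Mga (-0.69 ± 0.20), a partner of Max, and Mnt, a Max-binding repressor, was at -0.64 ± 0.22 (adjusted p = 0.0508). The partner Mlx (-0.16 ± 0.18) and the MondoA gene Mlxip (-0.38 ± 0.19) were not past that threshold. Among 8 other ChREBP targets tested, the ketohexokinase Khk was lower (-0.72 ± 0.18). Among 18 genes of fatty acid and triglyceride synthesis, 3 were lower and 1 higher. The elongases Elovl6 (-1.19 ± 0.34) and Elovl5 (-0.77 ± 0.19) and the phosphatidate phosphatase Lpin1 (-1.31 ± 0.30) were lower, and Acacb, the acetyl-CoA carboxylase at mitochondria, was higher (0.64 ± 0.20).

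Among 20 genes of glucose uptake and glycolysis tested, the transporter gene Slc2a2 (-0.47 ± 0.14) and the mitochondrial glycerol-3-phosphate dehydrogenase Gpd2 (-1.04 ± 0.23) were lower. Of 7 genes of α-arrestins, thioredoxins and their reductases, 1 was lower (Txnrd1, a thioredoxin reductase, -0.72 ± 0.23). Its relative Txnrd2 was at 0.82 ± 0.37 (limma adjusted p = 0.126). Of 7 small RGS genes, 2 were lower, Rgs3 (-0.70 ± 0.21) and Rgs5 (-0.62 ± 0.18), while Rgs2 was at -1.62 ± 0.48 (adjusted p = 0.0634). Of 12 Krüppel-like factor genes, 2 were lower, Klf9 (-0.92 ± 0.20) and Klf13 (-0.99 ± 0.25), and of 14 immediate early genes 0 passed, with Junb at -0.72 ± 0.61 and Zfp36 at -0.50 ± 0.31. Under median-of-ratios scaling 2 of the genes in these lists passed, Elovl5 (lower, -0.40) and Myc (higher, 0.90), and under the scaling without acinar markers only Myc (0.92), so the lower calls above were lost with that scaling.

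In OE against Ctrl 0 genes of these lists passed a limma adjusted p of 0.05. Most were higher, as most genes were: 19 of 20 for glucose uptake and glycolysis (median log2 fold change 0.75), 13 of 18 for fatty acid and triglyceride synthesis (0.56), 8 of 9 for the Mlx network (0.67), 8 of 9 for other ChREBP targets (0.54), 6 of 7 for α-arrestins and thioredoxins (0.42), 9 of 12 for Krüppel-like factors (0.58) and 12 of 14 for immediate early genes (0.50). Of 7 small RGS genes 3 were higher (median -0.08), beside 2.28 for Rgs16, with Rgs5 at -0.53 ± 0.73 and Rgs3 at 0.52 ± 0.51. The largest values were those of Klf11 (1.83 ± 0.55), the closest relative of Klf10, and Klf9 (1.56 ± 0.46), both higher in every OE than in every Ctrl library, and of Lpin1 (1.497 ± 0.494). Mxd4 (1.19 ± 0.45), Mnt (1.14 ± 0.49), Bhlhe41 (1.23 ± 0.53), Bhlhe40 (1.22 ± 0.55), Slc2a2 (1.24 ± 0.54), Pkm (1.24 ± 0.50) and Mid1ip1 (1.15 ± 0.50) were near the values of Txnip and Acly. Txnrd1 was at 1.05 ± 0.53, Arrdc2 at -0.70 ± 0.46, Junb at 0.90 ± 0.64 and Nr4a1 at 0.84 ± 0.77. The medians of these lists under median-of-ratios scaling lay between -0.48 (small RGS) and 0.30 (Krüppel-like factors).

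The order of the 10 genes by mean FPKM was the same at its upper end in all 4 groups, Txnip being first and Acly second, although in Ctrl Acly (123 FPKM) was level with Mlxipl (123 FPKM). In Flox, Txnip was at 606 ± 240 FPKM (SD, n = 4), Acly at 225 ± 82.3 and Mlxipl at 78.3 ± 37.8, and Acaca, Pklr, Arrdc4 and Klf10 were at 3.76 to 6.59 FPKM, where neighbours did not differ beyond their spread. In cKO, Txnip was at 680 ± 169, Acly at 144 ± 7.20 and Mlxipl at 38.1 ± 13.1, with Acaca lowest at 2.12 ± 0.27. In OE, Txnip was at 1005 ± 102, Acly at 249 ± 3.78 and Mlxipl at 166 ± 21.3, and Rgs16 (46.5 ± 9.56) and Klf10 (31.2 ± 6.78) came next. In Ctrl the SD was large beside the mean, for example 16.6 ± 16.02 FPKM for Rgs16 and 9.82 ± 9.04 for Klf10. The chow and HFD tables were normalized separately, so levels across them were not tested.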

How the data were processed

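Islet RNA of 16 libraries was analysed, 4 per group. The authors deposited FPKM in 2 tables of 8 libraries, with 17361 genes (cKO and Flox) and 17318 genes (OE and Ctrl). The labels give the build mm10. The aligner, the counting tool and the annotation are not given in the sources used here, and without read totals no counting interval can be given. Groups came from the sample titles, 0 per-sample columns were left unused, and no 2 libraries were identical. Where nothing says that libraries of a group came from separate animals, p-values measure the spread between these libraries only.

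Each table was tested on log2(FPKM + 0.5) where the mean over the 8 libraries reached 0.5 FPKM, with limma 3.58.1 in R 4.3.3 (trend and robust), two-sided, adjusted by Benjamini-Hochberg over all genes tested. Calls needed an adjusted p below 0.05 together with a log2 fold change beyond 1 in either direction, as in the study. Fold changes on this scale understate those of low genes. All 4 libraries per group were used, and the script was tested on simulated data. Shares of marker lists are sums of FPKM over all FPKM. Tables and figures were made with Python 3.11.15, pandas 2.3.3 and matplotlib 3.10.9.

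The members and lists were chosen with earlier results of these data known. The genes named are all 10 members in every library, in each list the 2 genes that changed most by log2 fold change and up to 6 past the adjusted threshold, the 5 genes most like Txnip and Mlxipl, and Vtcn1; Mlx, Mlxip and Myc, and the markers named, were added after their values were seen. Some genes of these lists are not reported here. Alternatives were pseudocounts of 1 and 0.1, no filter, a minimum mean of 1 FPKM, median-of-ratios scaling, scaling without acinar markers, fitting without trend and robust options, a block for the replicate number, 3 libraries per group, the acinar share as a covariate, no fold minimum, each library left out in turn and, added after seeing the data, Ctrl2 and Ctrl3 left out, and correlations without Flox17, without these 2 or on the scale without acinar markers.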

Additional observations from a re-analysis of the deposited data

Results flagged for a closer look

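Of 40 combinations of a member and a group of 4 libraries, 1 was flagged because its highest library lay far from the others: Arrdc4 was at 8.27 FPKM in Flox17, and the gap to the next Flox library was 0.852 of the range of the group, above Dixon's critical value for 4 samples. Chance flags about 1 in 20 groups.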

How the results depend on the processing

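The count of members called in cKO against Flox was 0, and it became 1 (Klf10) with the replicate block and 2 (Klf10 and Arrdc4) with the 3 libraries per group of the heatmaps. It ranged from 0 to 1 when each library was left out in turn (Mlxipl without Flox16, Klf10 without Flox17). In OE against Ctrl it was 0, and 2 (Klf10 and Rgs16) with the acinar share as a covariate, and it was 0 in the other alternatives. The counts of all genes called, given below, also rose with the replicate block, the heatmap libraries and the OE covariate. Those without Flox16 or without Flox17 are not reported here, so nothing is read from the member counts. The correlation of deviations of same-numbered libraries ran from -0.21 to 0.12, so no pairing by replicate number was seen. These deviations from the mean of a group of 4 libraries cannot exclude a pairing. Under the replicate block 102 genes were called higher and 166 lower in cKO against Flox.

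Of 180 alternative values of single members in cKO against Flox, 15 were on the other side of 0, and of 190 in OE against Ctrl, 1. In cKO against Flox, Pklr was at 0.23 with median-of-ratios scaling and 0.26 with scaling without acinar markers. With the acinar share as a covariate Txnip was at -0.14, Arrdc4 at -0.022, Mlxipl at 0.20, Pklr at 0.37, Rgs16 at -0.56, Fasn at 0.074, Acly at 0.28, Acaca at 0.26 and Gpd1 at 0.18. Over the libraries left out in turn Txnip ranged from -0.0097 to 0.45, Rgs16 from -0.20 to 0.64 and Pklr from -0.33 to 0.044. In OE against Ctrl Mlxipl was at -0.13 without Ctrl2 and Ctrl3. In the chow libraries the covariate fit cannot tell the acinar share and the group apart. The cause of each of these values was not tested.

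All genes called in cKO against Flox were 40 higher and 115 lower. They were 23 and 61 with a pseudocount of 1, 70 and 237 with 0.1, 0 and 0 without a filter (17361 genes tested) or with the acinar covariate, 121 and 151 without trend, 102 and 166 with the replicate block, 153 and 546 with 3 libraries per group, 120 and 1511 with no fold minimum, 26 and 10 with median-of-ratios scaling and 36 and 5 without acinar markers, so the lower majority was lost with either scaling. In OE against Ctrl they were 4 and 0, but 10 and 0 without a filter, 4 and 3 without acinar markers, 50 and 209 with the acinar covariate and 81 and 568 without Ctrl2 and Ctrl3. The wide spread of the Ctrl libraries limits OE against Ctrl, and the acinar shares that did not overlap between the groups limit cKO against Flox. The unknown read depth limits both comparisons.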
